A study of Homo sapiens with 10 samples.

Results

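The lysosome gene set comprised 43 genes: 9 cathepsins, 9 glycosidases and sulfatases, 6 lipid hydrolases and their activators, 3 other soluble proteins, 9 membrane proteins and transporters, 5 subunits of the proton pump and 2 transcription factors of the MiT family. They were picked by name and function, and each was described in 10 RNA-seq libraries of A549, a cell line established from a human lung adenocarcinoma. All 43 were found among the 33551 rows of the count table, and all 43 were among the 17978 genes kept by the filter on low counts.

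The series compared A549 lines that differ in ABCA3, the lipid transporter of lamellar bodies, with and without a lentivirus that carries ABCA3 fused to GFP. The 5 lines were wild type (WT), one whose labels name a knockout of ABCA3 (KO), and lines with the ABCA3 variants L101P, E292V or E690K. L101P is known as a variant that disturbs trafficking of the transporter (type 1), and E292V and E690K as variants that impair its function (type 2). Each line gave 1 untreated library and 1 library from cells transduced overnight with the VSVG-pseudotyped vector at a multiplicity of infection of 20, so that single-library values have no replicate error. Each genotype was represented by 1 line, and how the lines were edited or cloned is not given in the sources used here.

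Lysosomes are acidic organelles in which soluble hydrolases break down proteins, glycans and lipids delivered by endocytosis and autophagy, a proton pump keeps the lumen acidic, and membrane proteins carry the products out. Lamellar bodies of alveolar type 2 cells, where ABCA3 resides, are lysosome-related organelles that share many of these proteins. TFEB and TFE3, the regulators in the set, enter the nucleus when nutrient signalling through mTORC1 is low and activate many lysosomal genes through an E-box in their promoters.

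Levels are given as counts scaled to library size with TMM factors (CPM), and in each pair the untreated library is named first. ABCA3 itself stood at 356 and 602 CPM in WT, 600.3 and 26.0 in the pair labelled KO, 1151 and 922 in L101P, 965 and 1021 in E292V, and 900.3 and 994 in E690K. In the pair labelled KO the targeted gene thus went against the labels, being higher in the library labelled untreated, and every vector direction drawn from that pair rests on them. The EGFP row of the table stood at 69.7 and 151 CPM in WT, 37.9 and 0.0497 in the pair labelled KO, 1.00 and 36.9 in L101P, 20.2 and 66.0 in E292V, and 16.5 and 18.5 in E690K. Other pairs also followed their labels only in part: ABCA3 was lower in transduced than in untreated L101P, EGFP differed little in E690K, and untreated WT held more EGFP than the transduced library of every other line. ABCA3 passed no test in the fit used throughout (edgeR adjusted p 0.935 for the vector and 0.543 to 0.759 for the lines against WT, with log2 fold changes of -0.49 for the vector and -0.91, 1.03, 1.00 and 0.93 for KO, L101P, E292V and E690K). Among the alternative fits named below it passed against WT in 4 for L101P, 3 each for E292V and E690K, and 1 for KO. Depth was 59430095 to 96811421 counts per library, both extremes in the L101P pair, and the 95% Wilson interval of a member's level reached at most 21.8% of the level on each side (CTSK), with a median of 4.21% over the members' widest intervals; it covers counting error only. Of the epithelial markers KRT8 (3670 to 7950 CPM) and KRT18 (1590 to 3330) were abundant. KRT19 (61.6 to 473 CPM), CDH1 (21.8 to 35.4) and EPCAM (7.62 to 22.5) were lower. Defining markers of alveolar type 2 cells were at or near 0: SFTPA1 had 0 counts in 8 libraries, SFTPC reached at most 0.335 CPM, and LAMP3, the lamellar body membrane protein, 0.222 to 0.671 CPM. Of the leukocyte markers CD163 had 0 counts in 10 libraries and PTPRC in 5. CD14 had counts in every library (1.16 to 5.47 CPM), as did LAPTM5, LYZ and CSF1R at 1.06 CPM or less.

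The 43 genes made up 0.490% to 0.547% of all counts in a library, the lowest share in untreated E292V and the highest in transduced L101P. Compared per kilobase of exon (RPKM, from the same scaled counts), PSAP, the precursor of the saposins that activate sphingolipid hydrolases, stood highest at 409 RPKM (SD 17.3 over 10 libraries). The tetraspanin CD63 followed at 151 (SD 22.2) and the cysteine protease CTSL at 84.3 (SD 10.5). At the other end were TFEB at 1.23 RPKM (SD 0.168), the collagenolytic cathepsin CTSK at 1.80 (SD 0.255) and CTSH at 2.33 (SD 0.454). The 2 regulators were therefore far apart in level: TFE3 stood at 31.6 RPKM (SD 4.43), the 10th highest of the set, and TFEB was the lowest. CTSK and TFEB had 164 to 342 and 410 to 706 counts per library, which limits the precision of their differences. PSAP, CD63 and CTSL did not overlap in RPKM over the libraries, whereas CTSD (56.5, SD 7.48), CTSB (52.8, SD 4.25) and GRN (52.6, SD 2.88) overlapped.

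**Figure D1:**
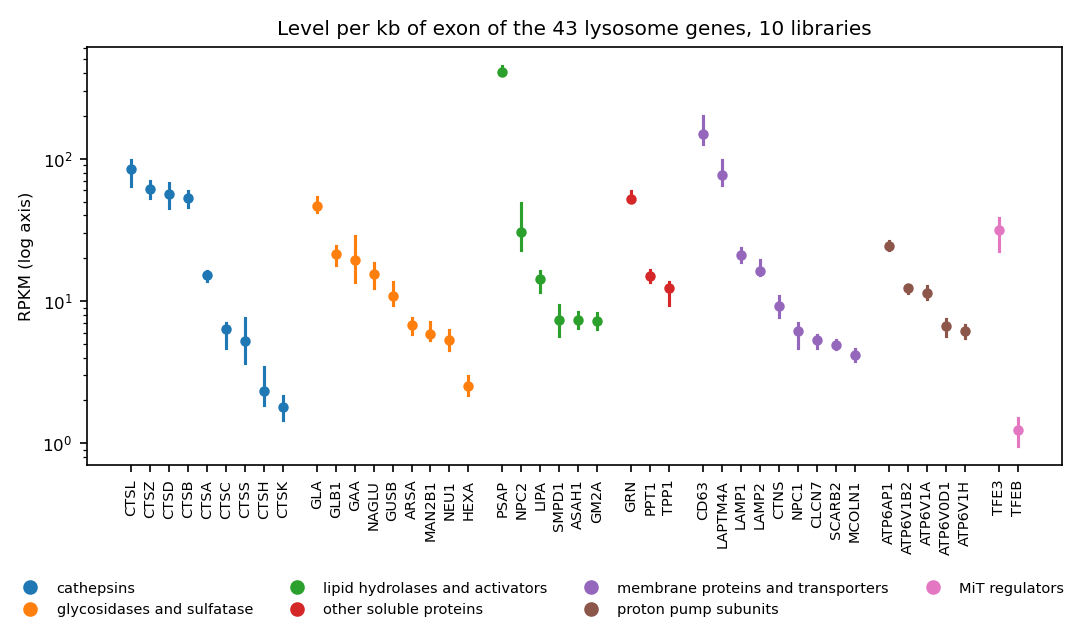
Level of each of the 43 genes per kilobase of exon, on a log axis in RPKM, grouped by role. Points are means over 10 libraries and bars run from the lowest to the highest library; PSAP stands at 409 and TFEB at 1.23 RPKM.

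Between libraries most members moved little. Among the 41 members that averaged 10 CPM or more, the median ratio of the highest to the lowest library was 1.36, beside 1.3 over the 9460 genes of that level, and 10 members exceeded a ratio of 1.5, beside 20% of all such genes. Among the steadiest were the pump subunit ATP6V1B2 (1.14) and PSAP (1.16). NPC2 (2.15), GAA (2.11) and CTSS (2.09) varied most.

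**Figure D2:**
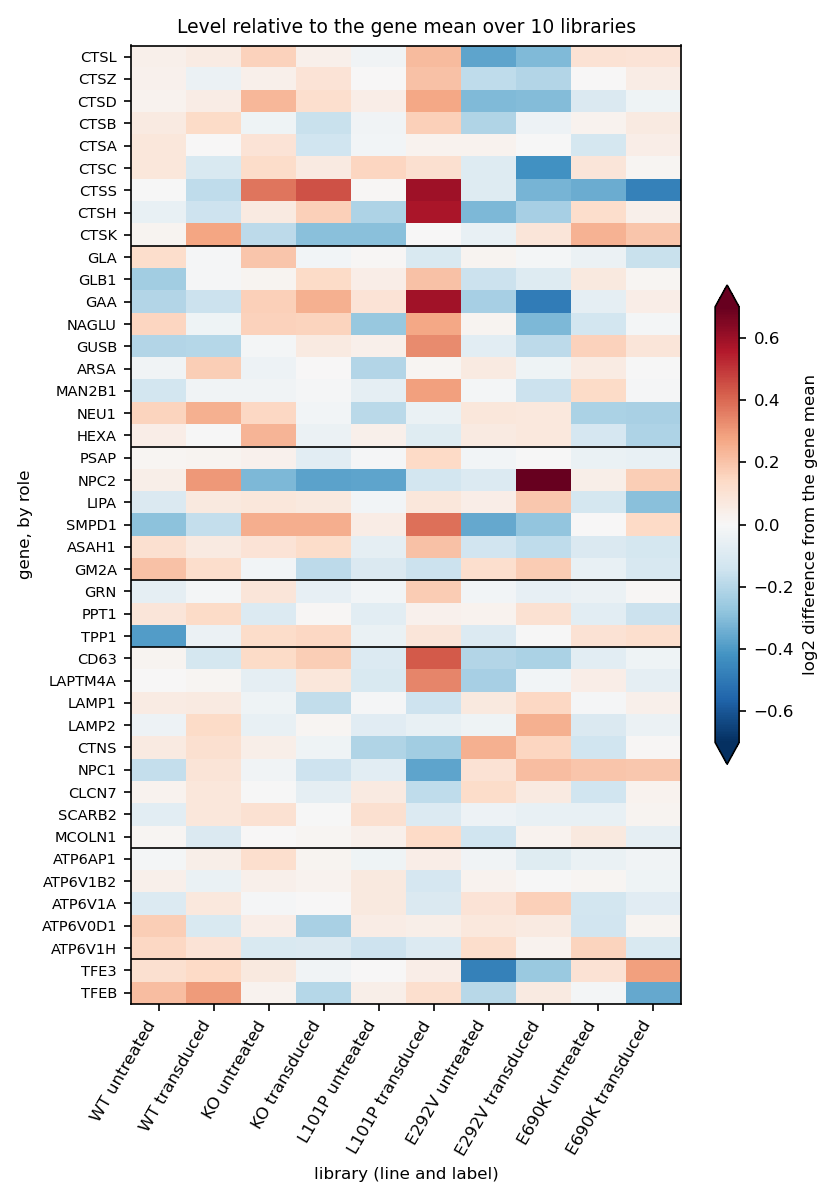
Log2 difference of each of the 43 genes from its own mean over the 10 libraries (color scale from -0.7 to 0.7), with genes in rows by role and libraries in columns. CTSL and CTSD are low in both E292V libraries, TFE3 is lowest in E292V, and GAA, CTSS, CTSH and CD63 are highest in transduced L101P.

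To ask whether any line differed from the others, the terms of KO, L101P, E292V and E690K against WT were tested together. The vector was an additive term. Of the 43 members 8 passed an edgeR adjusted p of 0.05 (18.6%), and of all genes tested 13% did. The 8 were TFE3 (edgeR adjusted p 0.00502), the cathepsins CTSD (0.00858), CTSL (0.0138), CTSS (0.0150) and CTSC (0.0465), the lipid-handling proteins SMPD1 (0.00768) and NPC2 (0.0294), and the glycosidase GAA (0.0108). By role, 4 of 9 cathepsins, 2 of 6 lipid hydrolases and activators, 1 of 9 glycosidases and sulfatases and 1 of 2 regulators passed, and 0 of 9 membrane proteins and 0 of 5 pump subunits did; 3 and 0 of the last 2 groups had an unadjusted p under 0.05, beside 25.7% of all genes. The spread behind these tests is what remains after line and vector effects are added, with 4 residual degrees of freedom, and says nothing of other clones of a genotype. In bulk RNA, fewer cells of a type and less RNA per cell cannot be told apart. Without the E292V pair the calls of TFE3 (edgeR adjusted p 0.468), CTSL (0.950), CTSD (0.274), CTSC (0.622) and SMPD1 (0.0654) were lost, and those of CTSS and NPC2 were lost without the KO pair (0.0782 and 0.0909) or the E690K pair (0.108 and 0.0644). Single libraries mattered as well: without 1 E292V library CTSL (0.120 for either), CTSD (0.0667, transduced) and TFE3 (0.0641, untreated) lost their calls, and without 1 E690K library CTSS (0.0827 and 0.0513) and NPC2 (0.0629 and 0.0709) did. NPC2 also fell short without the library labelled KO transduced (0.0826), and CTSC without any of 6 single libraries or with the KO labels exchanged (0.0551 to 0.485).

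**Figure D3:**
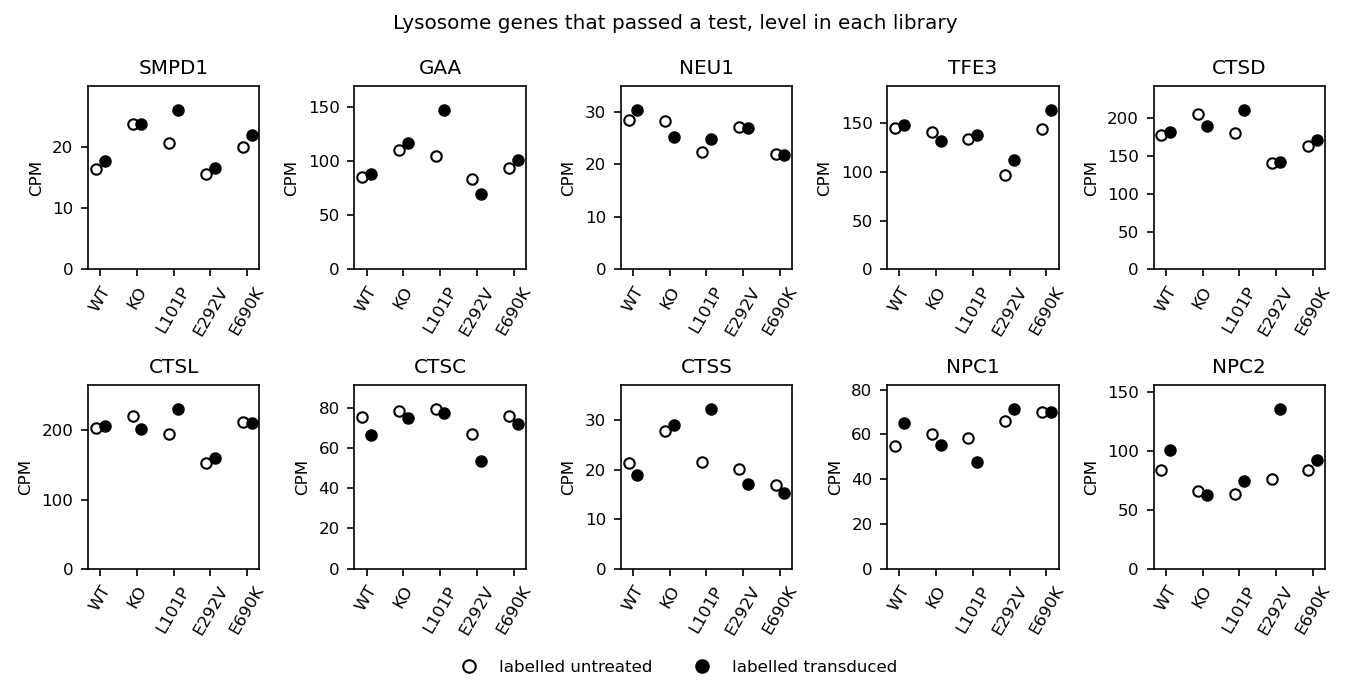
Levels in CPM of the 10 members that passed any test, in each of the 10 libraries, with open circles for libraries labelled untreated and filled circles for those labelled transduced. Axes start at 0; the 2 E292V points lie below the other 8 for TFE3, CTSD and CTSL.

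Against WT, few members passed in each line. In KO 1 member passed (SMPD1, higher), 2.33% of the set beside 1.8% of all genes tested. In L101P 2 passed (GAA and SMPD1, both higher), 4.65% beside 3.94%. In E292V 1 passed (TFE3, lower), 2.33% beside 1.05%, and in E690K 1 passed (NEU1, lower), 2.33% beside 5.38%. These shares rest on 1 or 2 genes, and the 4 contrasts share the WT libraries. The median log2 fold change of the 43 members for KO, L101P, E292V and E690K was 0.029, -0.0076, -0.045 and -0.050, beside -0.012, -0.014, -0.00065 and -0.017 over all genes. In the same order, 10, 11, 7 and 9 of the 43 had an unadjusted p under 0.05, as did 14.1%, 18.3%, 10.3% and 19.3% of all genes.

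TFE3, one of the MiT transcription factors that switch on lysosomal genes, lies on the minus strand of the short arm of chromosome X (49028726 to 49043486, GRCh38, GENCODE release 29). It stood at 145 and 148 CPM in WT, 140.4 and 132 in the pair labelled KO, 134 and 138 in L101P, 96.4 and 112 in E292V, and 144 and 164 in E690K. Both E292V libraries were below the other 8, and the 2 sets did not overlap. In E292V the log2 fold change against WT was -0.49 (SE 0.0836, edgeR adjusted p 0.0152), or 0.71 of the WT level, and it was -0.10 in both KO and L101P and 0.07 in E690K (adjusted p 0.569 to 0.734). The 68 genes of at least 1 CPM within 5 Mb of TFE3 were lower in E292V as well: their median log2 difference from WT was -0.457, with 67 of 68 below WT and 24 called. The median was -0.497 between the untreated libraries and -0.403 between the transduced ones, and in KO, L101P and E690K it was -0.005, 0.002 and -0.019. TFE3 thus differed from WT by about as much as the genes around it. The lower level did not cover the whole arm: UBQLN2, NBDY, SPIN3, SPIN2B and FAAH2, 7.53 to 8.35 Mb from TFE3 toward the centromere, had differences of 0.42, 0.43, 0.07, 0.07 and 0.40 in E292V. Beyond them ZXDB and ZXDA were at 0.02 and -0.43. Away from the centromere it reached far past 5 Mb, with PUDP, STS and CD99, 41.7 to 46.3 Mb from TFE3, at -0.59, -0.67 and -0.455. On that side SRPX (0.12), ASMTL (0.13) and IL3RA (0.007) were above 0. The call did not hold without the E690K pair (adjusted p 0.0530) or without any 1 of the 4 libraries compared, namely E292V transduced (0.0646), E292V untreated (0.0957), WT transduced (0.0546) or WT untreated (0.145), and the log2 fold change stayed between -0.58 and -0.40.

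The pump accessory subunit ATP6AP2, which is not among the 43 and was examined for its place on the same chromosome arm, showed the same size of difference. Its log2 fold change in E292V was -0.42 (SE 0.0702, edgeR adjusted p 0.0150), and its 16 neighbours had a median of -0.437, with 15 lower than in WT. The 3 members on the long arm of chromosome X did not follow: GLA, the alpha-galactosidase, had a log2 fold change of -0.06 in E292V, the lysosome membrane glycoprotein LAMP2 of 0.06 and the pump subunit ATP6AP1 of -0.07, with edgeR adjusted p from 0.841 to 0.874.

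**Figure D4:**
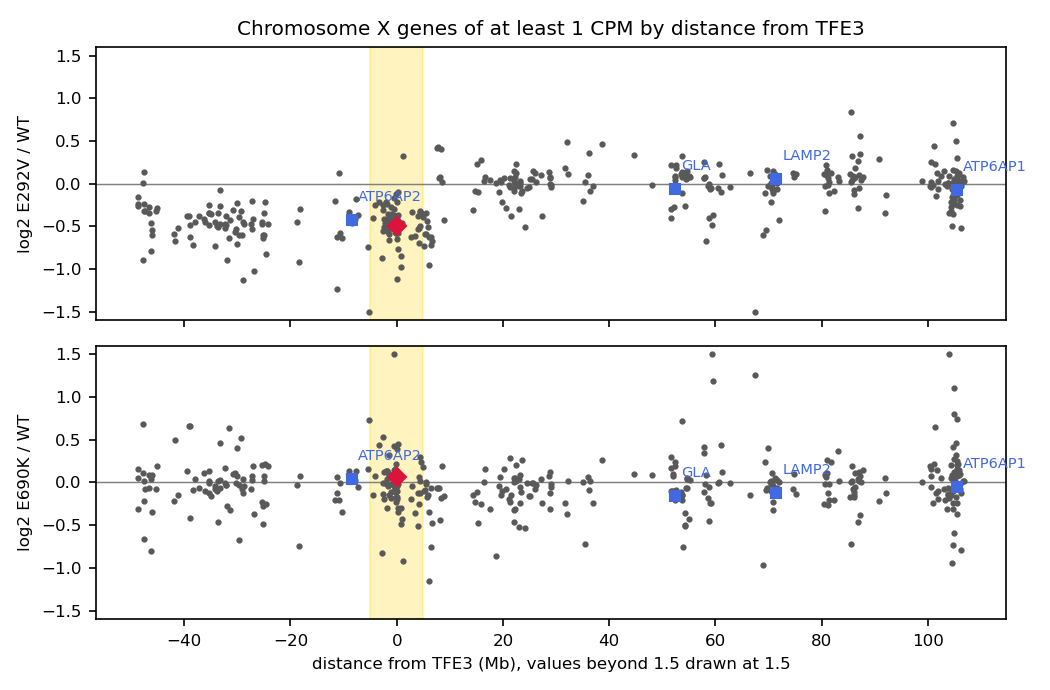
Log2 difference from WT, mean of the untreated and the transduced pair, of chromosome X genes of at least 1 CPM, by distance from TFE3 in Mb, in E292V (top) and E690K (bottom). The red diamond is TFE3, blue squares are lysosome genes and the shaded band is 5 Mb to each side; in E292V the genes in the band have a median of -0.457 and GLA, LAMP2 and ATP6AP1 lie near 0.

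TFEB, the other MiT factor, was at 8.04 and 8.50 CPM in WT, 7.03 and 6.03 in the pair labelled KO, 7.12 and 7.51 in L101P, 6.03 and 7.22 in E292V, and 6.85 and 5.39 in E690K. WT held the highest 2 values and transduced E690K the lowest. Log2 fold changes against WT for KO, L101P, E292V and E690K were -0.34, -0.18, -0.32 and -0.44 (SE 0.170 to 0.171), and none passed (edgeR adjusted p 0.399, 0.651, 0.581 and 0.177).

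MiT factors bind an E-box with the core CACGTG, and promoters of the set, windows of 300 bases around each RefSeq start that lie mostly before it (GRCh38.p14), were searched for it on both strands. Of the 43 genes 31 had such a promoter in the table. The core, whose letters read the same on both strands, was in 9 of the 31 (29%), in 7.43% of 27305 promoters of all genes, and in 19.2% of 120 promoters of other lysosome genes. The longer TCACGTG, or CACGTGA on the other strand, which contains the core, was in 8 of the 31 (25.8%), in 3.82% of all and in 19.2% of the other lysosome genes. The holders of the core were ATP6V0D1, CD63, CLCN7, CTSA, CTSD, GAA, LAMP1, MCOLN1 and NEU1. Stretches of 6 of these promoters are shown 5′ to 3′ on the strand of the gene, with the core in capitals: those of GAA, CTSD and NEU1, which passed a test between lines, and those of MCOLN1, CTSA and CLCN7, which hold 2 copies each and passed none.
GAA, chr17:80101485-80101575, plus strand: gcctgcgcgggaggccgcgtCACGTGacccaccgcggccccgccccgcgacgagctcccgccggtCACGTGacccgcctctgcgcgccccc
CTSD, chr11:1763949-1763994, minus strand: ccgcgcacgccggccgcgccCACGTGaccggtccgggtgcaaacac
NEU1, chr6:31862922-31862967, minus strand: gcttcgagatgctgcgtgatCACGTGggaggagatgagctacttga
MCOLN1, chr19:7522563-7522623, plus strand: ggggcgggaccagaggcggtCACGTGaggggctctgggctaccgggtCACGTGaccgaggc
CTSA, chr20:45891273-45891334, plus strand: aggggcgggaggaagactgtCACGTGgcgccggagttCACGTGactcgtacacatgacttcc
CLCN7, chr16:1475030-1475095, minus strand: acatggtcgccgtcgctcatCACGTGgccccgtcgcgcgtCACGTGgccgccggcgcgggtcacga
The core nearest the start lay 31 bases before it in GAA, 47 in CTSD, 126 in NEU1, 14 in MCOLN1, 25 in CTSA and 27 in CLCN7. LAMP1 held 6 copies, 5 of them wholly before the start. These letters were not in the windows of SMPD1, CTSL, CTSC, NPC1, NPC2, TFE3 and TFEB.

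In E292V, where TFE3 was lower, the 9 holders of the core had log2 fold changes of both signs, as did the whole set (15 of 43 above 0). Their log2 fold changes against WT ran from -0.34 for CTSD, -0.17 for GAA and CD63 and -0.12 for NEU1 through -0.03 for CTSA and -0.01 for MCOLN1 to 0.03 for ATP6V0D1, 0.04 for CLCN7 and 0.05 for LAMP1. None of the 9 passed (edgeR adjusted p 0.0862 for CTSD and 0.737 or more for the others). The part of TFE3 in these values was not tested.

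The cathepsins, the proteases of the lysosome, were lowest as a group in E292V. Their summed level was 936 and 966 CPM in the E292V libraries and 1081 to 1248 CPM in the other 8. All 9 had a log2 fold change below 0 against WT there (median -0.19, beside -0.00065 over all genes), 0 of 9 passed and 5 of 9 had an unadjusted p under 0.05, as did 10.3% of all genes. CTSL, an endopeptidase on chromosome 9 (87725519 to 87731393), stood at 203 and 206 CPM in WT, 221 and 203 in the pair labelled KO, 195 and 231 in L101P, 153 and 159 in E292V, and 212 and 211 in E690K. The aspartic protease CTSD, on chromosome 11 (1752752 to 1764573), stood at 178 and 181 CPM in WT, 206 and 190.4 in the pair labelled KO, 181 and 211 in L101P, 142 and 142 in E292V, and 163 and 172 in E690K. Both genes were lower in each E292V library than in every other library. The log2 fold changes were -0.39 for CTSL (SE 0.0860, edgeR adjusted p 0.0587) and -0.34 for CTSD (SE 0.0830, edgeR adjusted p 0.0862), just above the threshold. Among the alternative fits CTSD passed in E292V in 5 and did not in 13. CTSD in the other lines was at 0.14 in KO, 0.12 in L101P and -0.10 in E690K (edgeR adjusted p 0.475 to 0.575). Genes within 5 Mb of CTSL and CTSD had median differences of 0.035 and -0.052 in E292V. CTSD shares exon bases with other annotated genes, which makes its count uncertain where the counting could split them. In the E292V pair summed fibroblast markers were 75.8 and 119 CPM, beside 16.4 to 46.9 in the other 8 libraries, nearly all of it COL1A1 (log2 fold change 1.42, edgeR adjusted p 0.0214). The scarce fibroblast markers COL3A1 (0.370 and 0.354 CPM) and PDGFRB (0.271 and 0.406) were also highest in that pair, COL1A2 had counts in no other library (0.271 and 0.0208 CPM), and DCN was at 0 in both. LUM, at 1.57 to 4.05 CPM over the libraries, was not highest there, with 208 and 196 counts beside 252 and 308 in E690K. Summed epithelial markers, mostly KRT8 and KRT18, were 5879 and 5365 CPM there and 6269 or more elsewhere, but EPCAM was at 15.4 and 13.2 CPM beside 10.6 and 7.62 in WT, and CDH1 reached its highest level in untreated E292V (35.4). The part of these markers in the E292V values was not tested.

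CTSC, the dipeptidyl peptidase that activates granule proteases, stood at 75.6 and 66.5 CPM in WT, 78.4 and 74.8 in the pair labelled KO, 79.4 and 77.3 in L101P, 67.3 and 53.5 in E292V, and 76.1 and 72.3 in E690K. Its lowest value was in transduced E292V, and untreated E292V was near transduced WT. CTSB, CTSZ and CTSC had log2 fold changes of -0.22, -0.19 and -0.24 in E292V, none past the threshold (edgeR adjusted p 0.303 to 0.423).

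CTSS, a cathepsin best known from antigen-presenting cells, stood at 21.3 and 18.9 CPM in WT, 27.7 and 29.1 in the pair labelled KO, 21.5 and 32.2 in L101P, 20.0 and 17.1 in E292V, and 16.8 and 15.4 in E690K. It was highest in transduced L101P and in both libraries labelled KO, and lowest in both E690K libraries. Against WT the log2 fold change was 0.50 in KO (edgeR adjusted p 0.169) and 0.42 in L101P (0.191), and it was -0.12 in E292V and -0.32 in E690K, so that no single line passed. The summed level of 7 leukocyte markers was also highest in transduced L101P (6.71 CPM) and lowest in transduced E690K (1.93), with 4.64 and 3.47 in WT, 6.07 and 5.34 in the pair labelled KO and 3.91 and 3.85 in E292V. Most of it was CD14 (1.16 to 5.47 CPM), and other markers of the list went against the sum: LAPTM5 was lowest in transduced L101P (0.170 CPM) and highest in untreated E292V (1.06), and CSF1R was highest in transduced E292V (0.583). PTPRC and CD163 were at or near 0, and the part of these markers in the CTSS values was not tested. CTSH reached 20.1 CPM in transduced L101P and 10.9 to 15.2 CPM in the other 9 libraries, and CTSA, whose exons overlap those of PLTP and NEURL2 on the other strand, passed no test.

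Among the glycosidases GAA, the acid alpha-glucosidase that degrades lysosomal glycogen, lies on chromosome 17 (80101556 to 80119879). It stood at 85.3 and 88.6 CPM in WT, 110.4 and 117 in the pair labelled KO, 105 and 148 in L101P, 83.6 and 70.1 in E292V, and 94.1 and 102 in E690K. The 2 WT libraries were below the 2 of L101P and below those labelled KO, and E292V lay lowest. In L101P the log2 fold change against WT was 0.54 (SE 0.126, edgeR adjusted p 0.0349), or 1.45-fold. It was 0.39 in KO (edgeR adjusted p 0.165), 0.17 in E690K (0.528) and -0.17 in E292V (0.737). Without the transduced L101P library the log2 fold change was 0.27 (adjusted p 0.158). The call also ended without either WT library (0.149 and 0.116), either E690K library (0.0645 and 0.0679), the KO pair (0.0696) or the E690K pair (0.0858), and with the KO labels exchanged (0.0663). Genes within 5 Mb of GAA had a median difference of 0.025 in L101P. The difference of GAA in KO, uncalled in the fit used throughout, passed in 5 alternative fits and did not in 13.

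NEU1, the sialidase that acts in a complex with CTSA and beta-galactosidase, lies within the major histocompatibility region of chromosome 6 (31857659 to 31862906). It stood at 28.5 and 30.4 CPM in WT, 28.3 and 25.3 in the pair labelled KO, 22.4 and 24.7 in L101P, 27.0 and 27.0 in E292V, and 22.0 and 21.8 in E690K. Both E690K libraries were lower than both WT libraries, and the L101P libraries came next above E690K. The log2 fold change was -0.43 in E690K (SE 0.101, edgeR adjusted p 0.0291), or 0.744 of WT, and -0.32 in L101P (adjusted p 0.105), -0.13 in KO and -0.12 in E292V. Leaving out any 1 of the 4 libraries compared ended the call (E690K transduced 0.212, E690K untreated 0.214, WT transduced 0.196, WT untreated 0.112), with log2 fold changes of -0.48 to -0.37. Genes within 5 Mb of NEU1 had a median of -0.015 in E690K. NEU1 and GAA both hold the E-box core printed above, and their log2 fold changes in L101P had opposite signs.

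GUSB, the beta-glucuronidase often used as a reference gene, stood at 37.4 and 37.6 CPM in WT, 42.7 and 45.1 in the pair labelled KO, 44.2 and 54.4 in L101P, 41.1 and 38.0 in E292V, and 48.2 and 45.9 in E690K. WT held the lowest 2 values. The log2 fold changes of 0.39 in L101P (edgeR adjusted p 0.0541) and 0.33 in E690K (0.0905) did not pass. The other glycosidases and the sulfatase ARSA passed in no line; HEXA and MAN2B1 share exon bases with other annotated genes, so that their counts are uncertain where the counting could split them.

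Of the lipid-handling members SMPD1, the acid sphingomyelinase that converts sphingomyelin to ceramide, lies on chromosome 11 (6390431 to 6394998). It stood at 16.4 and 17.7 CPM in WT, 23.8 and 23.7 in the pair labelled KO, 20.6 and 26.0 in L101P, 15.6 and 16.5 in E292V, and 20.0 and 22.0 in E690K. WT and E292V shared the 4 lowest values, and untreated L101P (20.6) lay between the 2 E690K libraries. SMPD1 was 1.40-fold higher in KO (log2 fold change 0.48, SE 0.108, edgeR adjusted p 0.0457) and 1.37-fold in L101P (0.45, SE 0.108, edgeR adjusted p 0.0395). It was at 0.30 in E690K (adjusted p 0.145) and -0.09 in E292V (0.867). The KO call ended without either KO library (0.261 and 0.335), either WT library (0.227 and 0.204), either E690K library (0.0802 and 0.0837) or the E690K pair (0.0913), and with the KO labels exchanged (0.0741). The L101P call ended without the transduced L101P library (0.225), either WT (0.204 and 0.171), KO (0.0617 and 0.0607) or E690K library (0.0711 and 0.0725), without the KO or the E690K pair (0.0665 and 0.0734), and with the KO labels exchanged (0.0646). SMPD1 kept its sign in all 18 alternative fits of each contrast, with log2 fold changes of 0.399 to 0.566 in KO and 0.315 to 0.569 in L101P. Its neighbours within 5 Mb had medians of -0.019 in KO and -0.039 in L101P.

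NPC2, the soluble protein that hands cholesterol to NPC1, stood at 83.9 and 100.8 CPM in WT, 65.6 and 62.9 in the pair labelled KO, 63.2 and 74.6 in L101P, 76.3 and 135 in E292V, and 84.2 and 92.1 in E690K. Transduced E292V stood far above the rest, and KO and L101P held the 4 lowest values. Against WT the log2 fold changes were -0.51 in KO (edgeR adjusted p 0.122), -0.42 in L101P (0.152), 0.17 in E292V (0.795) and -0.06 in E690K. NPC2 shares 103 exon bases with ISCA2 on the other strand. PSAP, the most abundant member, ranged only from 1256 to 1457 CPM and passed no test. ASAH1, the acid ceramidase, and GM2A, the ganglioside activator, had log2 fold changes of -0.25 in E292V and -0.29 in L101P (edgeR adjusted p 0.278 and 0.102).

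The 3 other soluble members were the peptidase TPP1, the thioesterase PPT1 and progranulin (GRN), and 0 of 3 passed. TPP1 stood at 61.6 and 78.7 CPM in WT, 88.5 and 89.3 in the pair labelled KO, 78.3 and 85.6 in L101P, 75.7 and 80.5 in E292V, and 86.5 and 87.5 in E690K. Untreated WT was the lowest library, and the log2 fold changes of 0.35 in KO and 0.32 in E690K did not pass (edgeR adjusted p 0.0734 and 0.0605). GRN ranged from 185 to 219 CPM.

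The 9 membrane proteins and transporters passed in no line against WT. LAMP1, the main glycoprotein of the lysosome membrane, ranged from 108 to 135 CPM and had log2 fold changes for KO, L101P, E292V and E690K of -0.16, -0.14, 0.05 and -0.05 (edgeR adjusted p 0.384 to 0.907). The calcium channel MCOLN1 stayed between 14.9 and 18.1 CPM, with log2 fold changes of 0.05, 0.13, -0.01 and 0.05 (edgeR adjusted p 0.604 to 0.988). The cystine exporter CTNS was lowest in the 2 L101P libraries (26.8 and 26.2 CPM) and at 28.1 to 36.9 CPM elsewhere (log2 fold change -0.32 in L101P, edgeR adjusted p 0.0898). Of the 5 pump subunits, which acidify the lumen, 0 passed in any line, and their summed level ran from 349.7 CPM in untreated E690K to 370.7 in the library labelled KO untreated.

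The title of the series separates variants of 2 types, and L101P was therefore compared with the mean of E292V and E690K. Of the 43 members 5 passed (11.6%), beside 5.79% of all genes tested; with 1 line against 2 the type of variant cannot be told apart from the line. Higher in L101P were 4 of them: GAA (log2 fold change 0.54, SE 0.107, edgeR adjusted p 0.0127), CTSS (0.64, SE 0.139, 0.0198), CTSD (0.35, SE 0.0710, 0.0147) and SMPD1 (0.34, SE 0.0925, 0.0491). NPC1, the membrane partner that takes cholesterol from NPC2, was lower (log2 fold change -0.39, SE 0.0990, edgeR adjusted p 0.0382).

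NPC1 stood at 54.7 and 65.3 CPM in WT, 60.4 and 55.5 in the pair labelled KO, 58.4 and 47.5 in L101P, 65.8 and 71.2 in E292V, and 70.2 and 69.9 in E690K. Transduced L101P was the lowest library, and untreated L101P was below the 4 libraries of E292V and E690K. NPC2 (-0.48) and CTNS (-0.30) were also lower, just above the threshold (edgeR adjusted p 0.0572 and 0.0581). LAMP1, MCOLN1, TFEB and TFE3 had log2 fold changes of -0.13, 0.11, 0.20 and 0.11 (adjusted p 0.315 to 0.589), and ABCA3 of 0.06 (0.981). Marker genes of other lists differed too: KRT8 (0.54), KRT18 (0.51), KRT19 (1.21) and CD14 (1.40) were higher in L101P and COL1A1 lower (-1.40), with edgeR adjusted p from 0.00396 to 0.0272. Others of the same lists did not pass, and some had the opposite sign: EPCAM was at -0.27 and LAPTM5 at -1.16 (edgeR adjusted p 0.360 and 0.221). The part of these markers in the 5 calls was not tested. Over the set the median was 0.070, with 28 of 43 above 0, beside -0.0029 over all genes.

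All 5 calls were lost without the transduced L101P library, where the log2 fold changes were 0.28 for GAA, 0.26 for CTSS, 0.23 for CTSD, 0.21 for SMPD1 and -0.22 for NPC1 (edgeR adjusted p 0.154 to 0.538). They were lost too without the E292V pair (adjusted p 0.0677 to 0.734), which leaves L101P against E690K. The calls of GAA, CTSD, SMPD1 and NPC1 also ended without either E690K library (0.0501 to 0.161), and that of CTSS without transduced E690K (0.107), transduced E292V (0.0639) or the E690K pair (0.0861). NPC1 was lost without transduced E292V (0.107), either KO library (0.0508 each), the KO pair (0.0670) or the E690K pair (0.0853), and with the KO labels exchanged (0.0562). SMPD1 was lost under 12 of 14 removals of a library or a pair, and with the KO labels exchanged (0.0707). The signs of the 5 held in all 19 other fits.

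To ask whether the vector changed the set whatever the line, transduced and untreated libraries were compared within lines. Of the 43 members 0 passed (edgeR adjusted p under 0.05), and 0% of all genes tested did; 4 members and 1236 genes had an unadjusted p under 0.05, and the DESeq2 Wald test called 0 members and 113 genes. ABCA3 and EGFP did not separate transduced from untreated libraries in every pair, as given above, so that the vector comparison rests on the labels. The 3 members with the smallest p were NPC2 (log2 fold change 0.28, SE 0.0954, edgeR adjusted p 0.533), GLA (-0.12, SE 0.0454, 0.609) and CTSC (-0.14, SE 0.0542, 0.609). LAMP1 (-0.03), CTSD (0.04), GAA (0.10), TFEB (-0.03), TFE3 (0.07) and MCOLN1 (0.01) had SEs of 0.0494 to 0.108 and edgeR adjusted p from 0.862 to 0.995. The median over the set was 0.025, beside 0.00085 over all genes. Of the members 5 (11.6%) kept 1 direction in 5 of 5 lines, beside 8.03% of all genes: CTSC, GLA and ATP6V1B2 were lower, and TPP1 and LAMP2 higher. For NPC2 the largest change was in E292V, from 76.3 to 135 CPM (log2 change 0.83), beside 0.27 in WT, 0.24 in L101P, 0.13 in E690K and -0.06 by the labels of KO.

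Within single pairs the L101P pair stood out. The median log2 change of the 41 members of at least 10 CPM was 0.13 there, beside 0.018 over the 9460 genes of that level, and it was 0.025 in WT, -0.011 in KO, -0.0044 in E292V and -0.0060 in E690K. The largest changes in L101P were those of CTSH (0.79), CTSS (0.59), the glycosidase NAGLU (0.53), CD63 (0.53), GAA (0.49) and the membrane protein LAPTM4A (0.45). NPC1 (-0.30), the chloride-proton exchanger CLCN7 (-0.24) and SCARB2 (-0.21), the receptor that sorts glucocerebrosidase, were lower after transduction. With 1 library on each side these are differences between libraries and have no test.

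Gene length moved with this pattern. In the L101P pair all genes with under 3 kb of exon had a median change of 0.11, those of 3 to 6 kb of 0.04 and those over 6 kb of -0.04. The members followed the same order at 0.24 (7 of 8 higher), 0.10 (19 of 23 higher) and -0.08 (3 of 10 higher). A trend with length was not particular to this pair. Over all genes it ran the other way in WT (-0.13, -0.02 and 0.08) and in KO by its labels (-0.04, 0.0 and 0.03). The members did not follow it there, at 0.02, 0.03 and 0.0 in WT and 0.02, -0.01 and -0.09 in KO. Summed epithelial markers went from 7704 to 11800 CPM in the same pair, and depth from 59430095 to 96811421 counts. The part of length, depth and epithelial markers in the L101P changes was not tested.

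**Figure D5:**
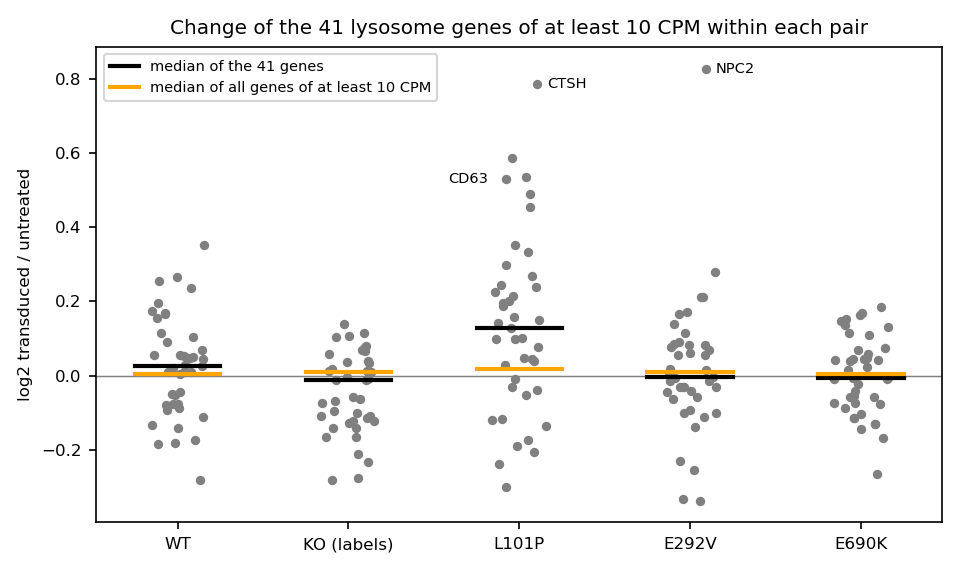
Log2 ratio of the transduced to the untreated library in each line for the 41 members of at least 10 CPM (grey points), with the median of these genes (black) and of all genes of that level (orange). The median of these genes is highest in L101P, at 0.13 beside 0.018 for all genes, and NPC2 stands apart in E292V at 0.83.

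The pathway around the 43 genes was described with 153 further genes in 7 lists (other hydrolases, membrane proteins and pump subunits, nutrient sensing, sorting, biogenesis of lysosome-related organelles, and autophagy), of which 151 were tested. Between lines 17 of 151 passed (11.3%, beside 13% of all genes), and for the vector 0 of 151, with 8 at an unadjusted p under 0.05. In KO 2 passed (1.32%, beside 1.8% of all genes): AP3S1, a subunit of the adaptor that routes cargo to lysosome-related organelles, was higher (log2 fold change 0.35, edgeR adjusted p 0.0407) and the autophagosome protein MAP1LC3B lower (-0.39, 0.0488). In L101P 5 passed (3.31%, beside 3.94%). AP3S1 (0.46), the heparan acetyltransferase HGSNAT (0.52) and the membrane glycoprotein CD68 (0.61) were higher, and MITF, another MiT factor (-0.52), and the adaptor subunit AP1S1 (-0.31) were lower, with edgeR adjusted p from 0.00804 to 0.0459. In E292V 1 passed (0.662%, beside 1.05%), ATP6AP2.

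E690K had 8 calls among these lists (5.3%), near the 5.38% of all genes. HGSNAT (log2 fold change 0.46), the autophagy protein ATG16L1 (0.37) and the pump subunit ATP6V0A4 (1.87) were higher. The MiT target RRAGD (-0.86), a GTPase that recruits mTORC1, its partner LAMTOR4 (-0.53), the glycoprotein GPNMB (-1.24), the autophagy receptor SQSTM1 (-0.39) and GABARAPL1 (-0.48) were lower, with edgeR adjusted p from 0.0104 to 0.0456 over the 8. ATP6V0A4 was scarce, at 95 and 136 counts in E690K, 44 and 28 in WT and 42 and 30 in E292V. It was also above WT in KO (84 and 87) and L101P (82 and 94). GPNMB had 154 and 66 counts in E690K, 326 and 234 in WT and 264 and 260 in E292V. It was below WT in KO (164 and 206) and L101P (148 and 142) as well. Neither gene passed in KO or L101P. In L101P against the mean of E292V and E690K 6 of 151 passed (3.97%, beside 5.79% of all genes): HGSNAT (0.34), AP3S1 (0.38), the protease LGMN (0.60) and ATP6AP2 (0.29) were higher, and MITF (-0.44) and AP1S1 (-0.25) lower, with edgeR adjusted p from 0.00630 to 0.0452. For ATP6AP2 this contrast includes its lower level in E292V, shared with its neighbours as described above.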

How the data were processed

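Gene counts of 10 bulk RNA-seq libraries were used as the authors deposited them, as raw counts per gene without normalization. The submitters' processing notes name featureCounts, Subread, edgeR, limma and GRCh38. The aligner, annotation and strand setting of the counting are not given in the sources used here. Low counts were mostly even (81.4% of values from 1 to 10, beside 51.5% above 1000), so counting intervals took each pair of counts as 1 fragment.

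Genes were filtered with filterByExpr, scaled with TMM (factors 0.972 to 1.03) and tested in edgeR 4.0.16 (R 4.3.3) by quasi-likelihood with line and vector terms over all 10 libraries (common dispersion 0.0168). P-values were adjusted by Benjamini-Hochberg over 17978 genes, with a threshold of 0.05. With 1 library per line and treatment, p-values measure only the spread between these libraries, which may be technical. Log2 fold changes carry SEs taken from the F statistic. Each line's 2 libraries formed the replicate block for the vector, because they come from the same line.

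Gene positions and exon lengths came from GENCODE release 29, which matched 98.7% of the rows, and promoters from RefSeq. Neighbours were genes of at least 1 CPM within 5 Mb. The members and the lists were chosen with earlier results of these data known. Every member that passed was named, with the 3 of smallest p where none did, LAMP1, CTSD, GAA, TFEB, TFE3, MCOLN1 and ABCA3 in each comparison, the highest and lowest by level, and up to 4 called genes of each other list. Other genes were named after their values were seen. Alternatives were DESeq2 1.42.0, its size factors in edgeR, other filters, libraries and pairs left out, and the labels of the KO pair exchanged. The fits were tested on simulated data.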

Additional observations from a re-analysis of the deposited data

Results flagged for a closer look

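The transduced library was set against the untreated one in the 5 lines for each of the 43 genes, and in 3 genes 1 line stood apart from the other 4. The gap of that line to its nearest neighbour exceeded 0.71 of the range over the 5 lines, a limit that chance passes in about 1 of 20 sets. All 3 were changes in L101P. CTSH, a cathepsin with aminopeptidase activity, had a log2 change of 0.786 there, the tetraspanin CD63 of 0.529 and the acid ceramidase ASAH1 of 0.269. Each rests on 1 library per treatment, and neither a test of the difference nor a cause was examined. The share of all genes past this limit was not computed, so 3 of 43 cannot be set beside it.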

How the results depend on the processing

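All called fold changes of members kept their sign under every setting run, but the counts of calls moved, and the cause was not tested. Without a filter on low counts 237 genes were called for the vector, 982 for KO, 1437 for L101P, 662 for E292V, 1659 for E690K, 3661 among the lines and 1707 for L101P against the mean of E292V and E690K, with 1, 5, 5, 3, 3, 15 and 9 members; the vector's member was NPC2 (edgeR adjusted p 0.00953). DESeq2 called 113, 744, 1236, 432 and 1464 genes for the vector and the 4 lines, 4 members for KO, 3 each for E292V and E690K, 18 among the lines and 9 in the last contrast. With the labels of the KO pair exchanged 142, 367, 105 and 599 genes were called for KO, L101P, E292V and E690K, 0 members each for KO and L101P and 3 in the last contrast, and the vector effect reversed for LAMP1 (0.0263), TFEB (0.06) and ABCA3 (0.801). With at least 10 counts in every library E690K had 2 members called. Counts over all genes are not printed here for this filter, DESeq2 among the lines, or DESeq2 and the exchanged labels in the last contrast. Those member counts therefore stand without the share of all genes in their own fit. The fit used throughout called 967 genes for E690K, 2337 among the lines and 1041 in the last contrast. Without the replicate block, 0 genes and 0 members were called for the vector, and NPC2 stood at 0.317.

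Leaving out 1 library or 1 pair gave 0 to 206 genes called for the vector, 25 to 1226 for KO, 180 to 1967 for L101P, 13 to 810 for E292V, 169 to 2147 for E690K, 931 to 4555 among the lines and 136 to 2647 in the last contrast. Members called ranged from 0 to 5, 0 to 9, 0 to 4, 0 to 4, 3 to 23 and 0 to 15, in the order from KO on. The upper end of each range was reached without untreated L101P, the library of lowest depth. The gene count for KO was the exception, highest without transduced L101P. A lone library of a line was assumed to vary like the others. Uncalled log2 values that changed sign were, for the vector, CTSD (-0.00252 to 0.0845), GAA (-0.00218 to 0.183), TFEB (-0.104 to 0.0533), MCOLN1 (-0.0359 to 0.0457) and ABCA3 (-0.875 to 0.166). For KO they were MCOLN1 (-0.0103 to 0.126) and ABCA3 (-4.26 to 0.427). For E292V they were LAMP1 (-0.0227 to 0.118), GAA (-0.398 to 0.033) and MCOLN1 (-0.113 to 0.0911), for E690K MCOLN1 (-0.0425 to 0.135), and in the last contrast TFE3 (-0.175 to 0.393) and ABCA3 (-0.137 to 0.283). Depth limits CTSK and TFEB most.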
